A study of Mus musculus with 24 samples.

Results

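The difference in RNA levels between a parental and a dormancy-derived melanoma line was compared with that between the myeloid lines M0 and J365, all of mouse, gene by gene, as the difference (D minus M) minus (J365 minus M0). The 4 lines gave 14 of the 24 arrays of the series: 3 of M, 4 of D, 4 of M0 and 3 of J365. Every gene entered whose probe was read, meaning marked well above background by the scanner software, on every array of at least 1 of these lines. A gene counts as read in a pair if it was read on every array of at least 1 line of that pair. This left 23120 genes, 17685 of them read in both pairs, 2460 in the melanoma pair only and 2975 in the myeloid pair only. A gene read in 1 pair only may thus be read on part of the arrays of the other.

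M and D are short for B16F1-GFP-M and B16F1-GFP-D, 2 lines of B16F1 mouse melanoma cells with green fluorescent protein in their name. According to the study, M is parental and D was isolated after about a year of dormancy in syngeneic mice under immunotherapy, then expanded in vitro, so the RNA is that of growing cultures. M0 and J365 are labelled only as myeloid cell lines. The study's dormant leukemia model uses the parental line DA1-3b and a line recovered from it, but nothing in the labels ties M0 or J365 to either, and whether J365 descends from M0 is not stated there. All 4 lines have the same label fields otherwise: no genotype or agent is given beyond the line names, and the culture medium is stated for the melanoma lines only. The M0 and J365 titles also carry the tag p20, which the M and D titles lack. It may be a passage number, but the titles do not explain it. Whether the arrays of a line came from separate cultures is not given either, so p-values measure the spread between these samples, which may be technical. 1 array of M0 and 1 of J365 have no number in their labels and are called replicate 4.

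Tumour dormancy is a state in which residual cancer cells persist without forming a growing mass, held back by quiescence, by poor blood supply or by immune control. Interferons, released by immune cells, switch on a set of antiviral and antigen-presenting genes in tumour cells. Cells that outlast immune pressure are also known to rewire sugar and amino acid metabolism.

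Each array was read at a similar depth apart from D replicate 3, on which 89.9% of probes were well above background against 43.6% to 53.8% on the others. The arrays lay on 3 slides, each with all 4 lines, and the only D array of slide 2 is replicate 3. The mean normalized log2 signal (log2 intensity less the 75th percentile of its array) of 14 melanin synthesis genes was 5.19 to 6.39 on the M and D arrays and -4.37 to -3.49 on the M0 and J365 arrays. That of 13 blood cell genes was -4.18 to -2.07 and 2.47 to 3.17, the value of -2.07 being that of D replicate 3. On both marker lists the cell types did not overlap.

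Few genes were called in both pairs. Their number was not tested against what unrelated calls would give, so it shows neither a small nor a large overlap. With limma, 272 genes were higher (1.18% of those tested) and 289 lower (1.25%) in D than in M, and 157 were higher (0.679%) and 182 lower (0.787%) in J365 than in M0, all at an adjusted p under 0.05. Of the 877 genes called in at least 1 pair, 23 (0.0995% of genes tested) were called in both. Of these, 10 moved in the same direction (0.0433% of genes tested) and 13 in opposite directions (0.0562%). The difference itself was called for 480 genes, with a larger value in the melanoma pair for 283 (1.22%) and a smaller one for 197 (0.852%). Among the 480, 240 were called in the melanoma pair alone, 187 in the myeloid pair alone, 13 in opposite directions, 2 in the same direction with unequal size and 38 in neither. An array averages a whole culture, so fewer cells with a transcript and less of it per cell cannot be told apart. Within single slides, 478 of the 480 kept their sign on all 3, which selection by calls on these same arrays makes likely. These counts moved with single arrays: without D replicate 1 the difference was called for 377 and 388 genes, with 24 same-direction and 23 opposite genes, without D replicate 3 for 324 and 237 genes, and without M replicate 3 for 244 and 122. With quantile normalization between arrays the difference was called for 245 larger and 297 smaller values.

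**Figure D1:**
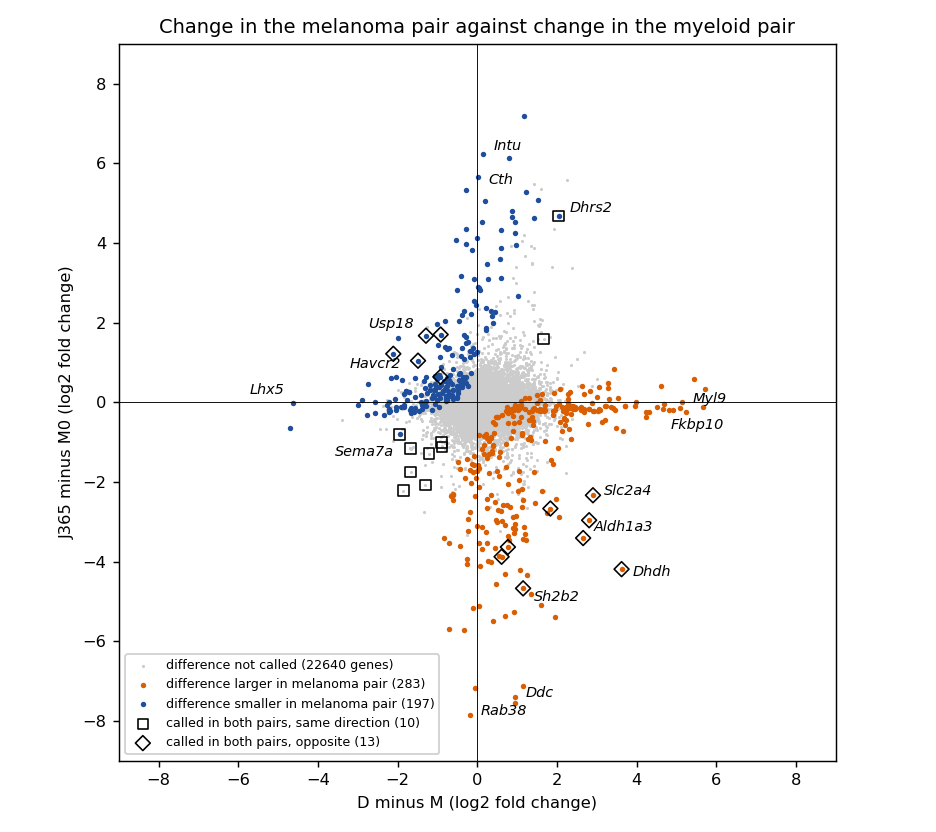
Log2 fold change of D minus M (x axis) against J365 minus M0 (y axis) for the 23120 genes tested, 1 point a gene. Orange and blue points are the 283 and 197 genes whose difference between models was called, squares the 10 genes called in the same direction in both pairs and diamonds the 13 called in opposite directions. Most called genes lie along 1 of the axes.

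Genes that moved the same way in both pairs were mostly lower in D and J365. Of the 10, 8 fell in both pairs and 2 rose in both, and 9 have a gene symbol. The other is a probe without a symbol, which rose. The 8 that fell are Sema7a, F11r, Bcan, Cd248, Tmem184a, Ccdc74a, Gm14625 and Gm8032. Dhrs2, a short-chain dehydrogenase/reductase, is the one named gene that rose in both. All 10 kept their sign in both pairs on each of the 3 slides, which selection by calls on these same arrays makes likely. Fewer kept their calls in both pairs under other settings: 4 of the 10 with quantile normalization, 4 with normexp background correction and 4 with the 14 arrays alone.

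Dhrs2 read 1.64, 0.82 and 1.25 on M replicates 1 to 3 and 3.66, 3.28, 2.80 and 3.38 on D replicates 1 to 4. In the myeloid pair it was -4.51, -5.19, -5.59 and -4.93 on M0 replicates 1 to 4, where no array read it above background, and -0.45, -0.32 and -0.35 on J365 replicates 1, 3 and 4. Every D array lay above every M array and every J365 array above every M0 array. The change was 2.04 ± 0.24 (SE, adjusted p 2.36e-05) in the melanoma pair and 4.68 ± 0.24 (SE, adjusted p 7.23e-11) in the myeloid pair, where J365 was at least 13.1-fold higher than M0. The difference of the changes, -2.64 ± 0.34 (SE, adjusted p 6.48e-05), was called, but with normexp background correction it was -0.08 with an adjusted p of 0.987, while the calls in both pairs were kept. DB#1, DB#2 and DB#3, the brain-derived melanoma lines of the series, had mean signals of 3.81, 3.30 and 3.36.

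Sema7a, a membrane-anchored semaphorin that binds integrins and acts in axon growth and immune cell activation, fell from 0.39, -0.18 and -0.37 in M to -2.07, -1.71, -1.60 and -1.50 in D. Its values were -4.42, -3.71, -3.48 and -3.74 in M0 and -4.95, -5.53 and -4.52 in J365, in which no array read it above background. Neither pair overlapped. The changes were -1.67 ± 0.26 (SE, adjusted p 0.000509) and -1.16 ± 0.26 (SE, adjusted p 0.0209), and the myeloid call was lost under 9 of the 23 alternative settings that tested it, among them normexp correction (-0.31, adjusted p 0.492) and the fit without M0 replicate 2 (-1.12, adjusted p 0.0688).

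F11r encodes junctional adhesion molecule A, which holds epithelial cells together at tight junctions and guides leukocytes across them. It was read on every array: 2.84, 2.40 and 2.58 in M, 2.21, 1.12, 0.92 and 1.31 in D, 1.73, 1.55, 1.35 and 1.02 in M0 and 0.27, 0.23 and -0.12 in J365. D replicate 1 lay nearest to the M arrays, yet the lines of each pair did not overlap. The size of the fall was close in the pairs, -1.22 ± 0.26 (SE, adjusted p 0.0103) and -1.29 ± 0.26 (SE, adjusted p 0.00795), with a difference of 0.07 ± 0.36 that was not called (adjusted p 0.999). Without M replicate 1 the melanoma call was lost (adjusted p 0.0753), and without J365 replicate 4 the myeloid one (adjusted p 0.0712).

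Bcan, the brain proteoglycan brevican, was 4.51, 4.71 and 4.85 in M and 4.22, 3.17, 2.71 and 3.44 in D, then -0.59, -0.61, -0.96 and -1.37 in M0 and -3.02, -2.88 and -2.98 in J365. No arrays overlapped within a pair. The falls were -1.30 ± 0.30 (SE, adjusted p 0.0184) and -2.08 ± 0.30 (SE, adjusted p 0.000188). A second probe of the gene agreed in the melanoma pair (-1.18) but stood at 0.50 in the myeloid pair, so the myeloid fall rests on 1 probe, and with the mean of the probes it was -0.79 and not called (adjusted p 0.0593). The melanoma call was lost under 6 of 24 settings, among them the replicate block (adjusted p 0.0514) and the fits without M replicate 2 or 3 or D replicate 2 or 3 (adjusted p 0.0525 to 0.106). Cd248, which encodes the stromal and pericyte glycoprotein endosialin, had changes of -0.90 ± 0.24 (SE, adjusted p 0.0496) and -1.01 ± 0.24 (SE, adjusted p 0.032), close to the threshold in both, and lost its melanoma call under 19 and its myeloid call under 12 of 24 settings. No J365 array read it, which bounds the fall at no less than 1.39-fold.

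Tmem184a, a transmembrane protein, had means of -2.83 ± 0.39 (SD, n = 3) in M and -4.50 ± 0.61 (n = 4) in D, where 1 of 4 arrays read it, and of 0.40 ± 0.27 (n = 4) in M0 and -1.34 ± 0.45 (n = 3) in J365. Its changes, -1.67 ± 0.32 and -1.74 ± 0.32, differed by 0.07 ± 0.45, which was not called (adjusted p 0.999). With normexp correction the change of Tmem184a in D was -0.56 and not called (adjusted p 0.149). Ccdc74a, a coiled-coil protein, fell by 1.95 in D and by 0.80 in J365, and the difference of -1.15 ± 0.20 (SE, adjusted p 0.00152) was called. In the myeloid pair it was read on 1 of 7 arrays only, so there its change is one between signals near background. The predicted genes Gm14625 (-1.85 ± 0.35 and -2.22 ± 0.35) and Gm8032 (-0.89 ± 0.23 and -1.12 ± 0.23) complete the group. Gm14625 was read on 2 of 4 M0 arrays and on no J365 array, so its myeloid change also involves signals near background. Its myeloid call was lost with quantile normalization (adjusted p 0.0512) and with normexp correction (-0.53, adjusted p 0.151). The melanoma call of Gm8032 (adjusted p 0.0474) was lost under 17 of 24 settings. Gm8032 was the 1 gene of the 23 whose arrays overlapped within a pair, D replicate 1 at -0.47 lying among the M arrays.

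**Figure D2:**
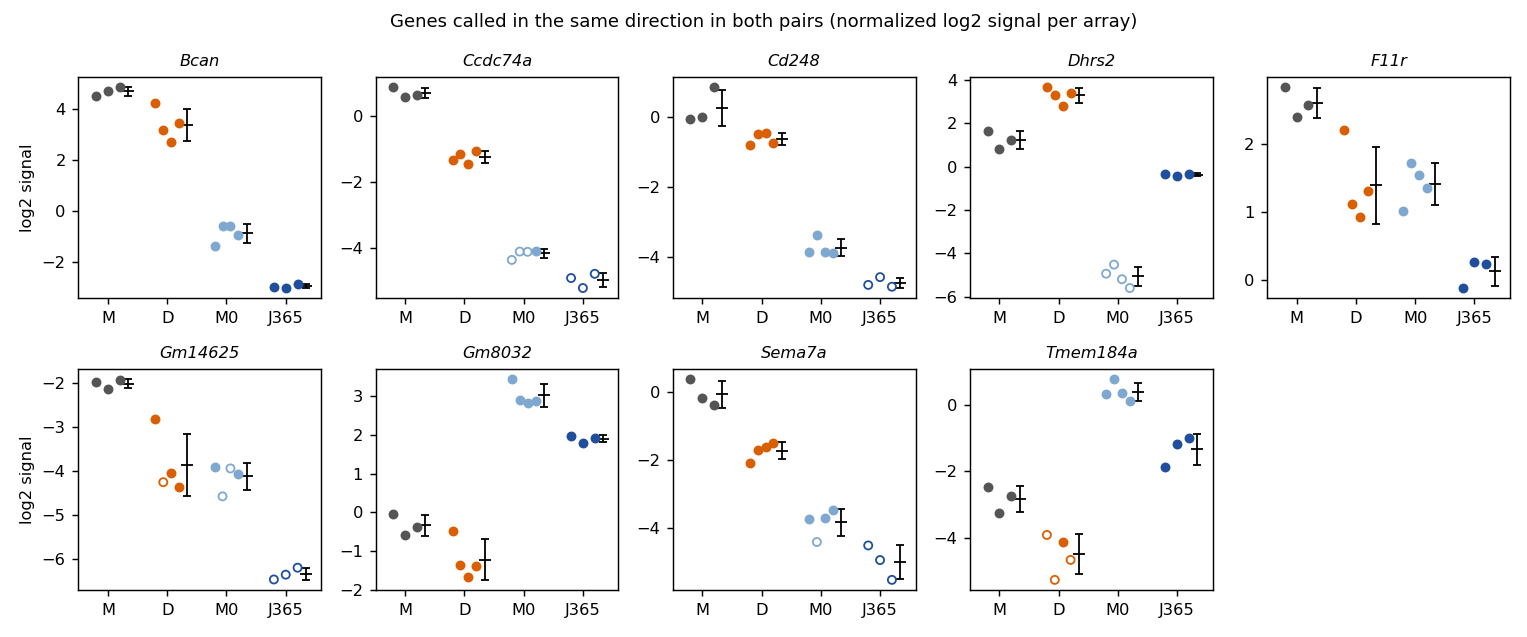
Normalized log2 signal (y axis, a panel per gene with its own scale) on each array of M, D, M0 and J365 for the 9 named genes called in the same direction in both pairs. Filled points were well above background and open points were not, and black bars give mean ± SD. Dhrs2 is higher in D than in M and in J365 than in M0, and the other 8 are lower.

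Genes that moved in opposite directions were 8 that rose in D and fell in J365 and 5 that did the reverse. The first set holds Aldh1a3, Dhdh, Slc2a4, Slc44a3, Sh2b2, Tnnt1, Dlg3 and a probe without a symbol. The second holds Havcr2, Usp18, Tmcc3, Padi2 and a probe without a symbol. All 13 kept their signs in both pairs on each slide, and the arrays of the lines did not overlap in either pair for any of the 13. For comparison, 0.908% of all genes tested had no overlap in both pairs. Selection by calls on these same arrays favours both traits, so they are not separate support for the 13 genes. Likewise, a gene called in opposite directions is bound to have a large difference, so the call of all 13 in the difference adds nothing. Calls in both pairs were kept by 9 of the 13 with quantile normalization, 6 with normexp background correction and 6 with the 14 arrays alone.

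Aldh1a3 makes retinoic acid from retinaldehyde and marks aldehyde dehydrogenase-high tumour cells. It was -3.27, -3.14 and -3.07 in M and -0.10, -0.61, -0.61 and -0.69 in D, and -3.50, -3.05, -3.38 and -2.66 in M0 and -6.43, -6.42 and -6.80 in J365. M and M0 thus started at similar signals, and D lay wholly above M and J365 wholly below M0, with changes of 2.66 ± 0.26 (SE, adjusted p 1.27e-06) and -3.41 ± 0.26 (SE, adjusted p 2.44e-08). No J365 array read it above background, which bounds that fall at no less than 2.12-fold.

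Dhdh, a dihydrodiol dehydrogenase that oxidises diols of aromatic hydrocarbons, was not read in M (-6.19, -5.44 and -5.62) and was read on all D arrays (-2.35, -2.17, -1.68 and -2.32). In the myeloid pair it was read on every M0 array (0.36, 0.14, -0.07 and -0.64) and on none of J365 (-4.01, -4.13 and -4.59). D was at least 4.48-fold higher than M, and J365 at least 17.7-fold lower than M0. The difference between models, 7.81 ± 0.35 (SE, adjusted p 1.28e-11), was the second largest positive one among genes read in both pairs.

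Slc2a4 encodes the insulin-responsive glucose transporter GLUT4. Its signal was -2.76, -3.58 and -2.55 in M, -0.66, 0.03, 0.29 and 0.11 in D, -2.93, -3.31, -3.45 and -3.95 in M0 and -6.32, -5.13 and -5.78 in J365, the last at background. The changes were 2.91 ± 0.29 (SE, adjusted p 2.44e-06) and -2.33 ± 0.29 (SE, adjusted p 3.51e-05), though with normexp correction the myeloid change was -0.60 and not called (adjusted p 0.174). Sh2b2, an adaptor of insulin and cytokine receptor signalling, moved likewise, 1.15 ± 0.29 (SE, adjusted p 0.0335) in D and -4.67 ± 0.29 (SE, adjusted p 9.63e-10) in J365, and lost its melanoma call under 10 of 24 settings. J365 was at least 14.1-fold below M0 for it. Slc44a3, a choline transporter-like protein, had 1.84 ± 0.20 (SE, adjusted p 9.73e-06) and -2.67 ± 0.20 (SE, adjusted p 3.07e-08), the latter at least 2.23-fold.

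Tnnt1, the troponin T of slow muscle, and Dlg3, a scaffold of synapses and cell junctions, had small rises in D beside large falls in J365. Tnnt1 went from -1.30 ± 0.23 in M to -0.53 ± 0.11 in D and from 5.33 ± 0.23 in M0 to 1.70 ± 0.25 in J365 (mean ± SD). For Dlg3 the rise was 0.61 ± 0.15 (SE, adjusted p 0.0379) and the fall -3.88 ± 0.15 (SE, adjusted p 1.25e-12). The melanoma calls of these genes were lost under 6 and 10 of 24 settings, the myeloid ones under none.

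Havcr2 encodes TIM-3, an inhibitory receptor of T cells and myeloid cells. On the M arrays it was 0.11, -0.06 and 0.02, on the D arrays -1.14, -1.51, -1.50 and -1.70, on the M0 arrays -0.92, -1.06, -1.23 and -0.35 and on the J365 arrays 0.02, -0.21 and 0.66, all of them read. The lines of each pair did not overlap, and the changes were -1.49 ± 0.22 (SE, adjusted p 0.000273) in D and 1.05 ± 0.22 (SE, adjusted p 0.0112) in J365. Without J365 replicate 4, the highest, the myeloid change was 0.80 and not called (adjusted p 0.131).

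Usp18 encodes a protease that strips ISG15 from proteins and damps the type I interferon receptor. It was -1.90, -1.67 and -1.57 in M against -2.34, -2.96, -3.56 and -3.14 in D, and -0.27, -0.48, -0.79 and -0.83 in M0 against 1.26, 1.07 and 0.91 in J365. The lines of each pair stood apart, by -1.29 ± 0.26 (SE, adjusted p 0.00759) and 1.68 ± 0.26 (SE, adjusted p 0.000589). With quantile normalization the same directions held at -1.89 and 1.70, but neither was called (adjusted p 0.107 and 0.211), and with normexp correction the change in D was -0.69 and not called (adjusted p 0.134). Among the brain-derived lines, the mean was -2.60 in DB#1, 0.40 in DB#2 and -3.85 in DB#3.

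Tmcc3, a coiled-coil protein of the endoplasmic reticulum, had means of 3.61 ± 0.16 in M, 2.69 ± 0.37 in D, -1.82 ± 0.23 in M0 and -0.12 ± 0.10 in J365. Its probes agreed, at -0.92 and -0.86 in D and at 1.70 and 1.72 in J365. Padi2, which converts arginine in proteins to citrulline, changed by -0.92 ± 0.15 (SE, adjusted p 0.00125) and 0.64 ± 0.15 (SE, adjusted p 0.0407). M0 replicate 4, at 2.19, lay below the other M0 arrays, at 2.81 to 3.00, and the myeloid call of Padi2 was lost under 12 of 24 settings.

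**Figure D3:**
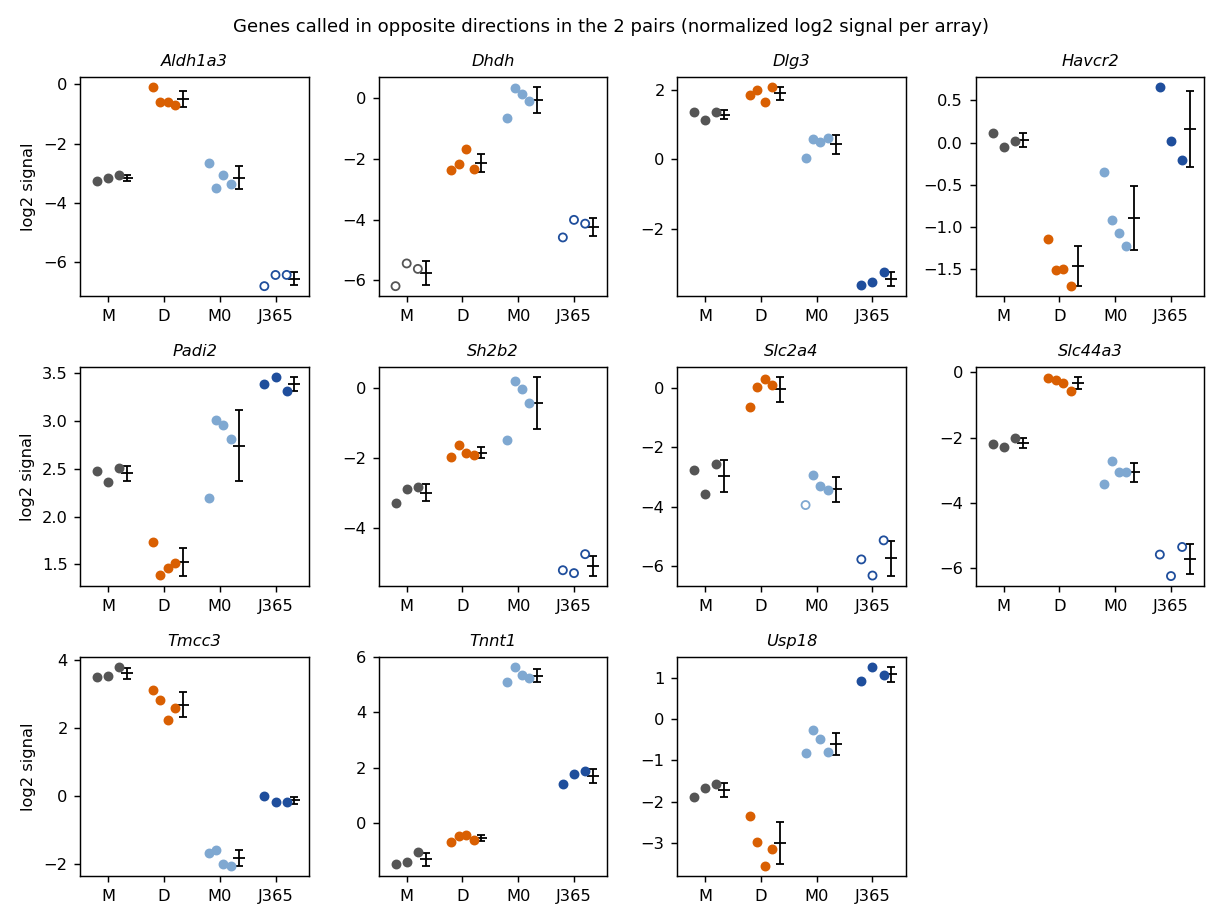
Normalized log2 signal (y axis, a panel per gene with its own scale) on each array of M, D, M0 and J365 for the 11 named genes called in opposite directions. Filled points were well above background and open points were not, and black bars give mean ± SD. Havcr2, Padi2, Tmcc3 and Usp18 are lower in D and higher in J365, and the other 7 are higher in D and lower in J365.

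Interferon-stimulated genes were the list with the most calls in the difference, all in 1 direction. Of 30 genes listed, 26 were tested, and 7 of them (26.9%, against 2.08% of all genes tested) had a smaller value in the melanoma pair: Oas2, Usp18, Oas1a, Xaf1, Ddx58, Irf7 and Irf9. Oas1a and Oas2 make the second messenger that activates the RNA-degrading RNase L, Ddx58 is the viral RNA sensor RIG-I, Xaf1 promotes cell death, and Irf7 and Irf9 are factors that drive interferon genes and their targets. In D, 8 of the 26 fell (the 7 and Stat2) and Oasl1 rose, though 3 fell without M replicate 3, with the 14 arrays alone or with no scaling between arrays, and 4 without M replicate 2. In J365 Usp18 rose and no gene fell. Whatever the test, 15 of 26 were lower in D and higher in J365 (57.7%, against 20.6% of all genes), and the list's median was -0.55 in D, 0.21 in J365 and -0.50 in the difference, where all genes had 0.02, 0.00 and 0.00. The median of the difference was -0.45, -0.87 and -0.86 within slides 1, 2 and 3. That of D was -0.48, -0.62 and -0.71 and that of J365 -0.04, 0.31 and 0.24, so on slide 1 both pairs were below 0. Leaving out M replicate 3 reduced the number called in the difference to 3 and leaving out D replicate 1 raised it to 9, always in the same direction, and it was 11 with slide as a block.

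Oas1a gave 2.43, 2.72 and 2.95 on the M arrays and 1.76, 0.54, -0.04 and 0.37 on the D arrays. Its values were 3.86, 3.59, 3.29 and 3.75 on the M0 arrays and 4.05, 4.25 and 4.49 on the J365 arrays. Each D array was below each M array, and each J365 array above each M0 array, by a smaller step. The fall in D, -2.04 ± 0.28 (SE, adjusted p 0.000147), was called, the value in J365, 0.64 ± 0.28 (SE, adjusted p 0.514), was not, and the difference was -2.68 ± 0.40 (SE, adjusted p 0.000329).

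Oas2 was -2.91, -2.61 and -2.75 in M and -5.81, -5.42, -3.01 and -4.75 in D, of which replicate 3 alone was read above background. It was -0.48, -0.48, -0.33 and -0.26 in M0 and 1.35, 1.22 and 1.11 in J365. Both pairs stood apart, in the melanoma pair by little between D replicate 3 and M replicate 1, with -2.00 ± 0.41 (SE, adjusted p 0.00818) in D and 1.61 ± 0.41 (SE, adjusted p 0.0576) in J365, the latter short of the threshold, and the difference was -3.61 ± 0.58 (SE, adjusted p 0.000773).

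The other members called were smaller in their differences, -2.18 ± 0.54 for Xaf1, -1.50 ± 0.32 for Ddx58, -1.37 ± 0.35 for Irf7 and -1.17 ± 0.26 for Irf9. In J365 these 4 had values from 0.31 to 0.61, none called. Members with small values in both pairs included Irf1 (-0.02 in D, 0.07 in J365) and Ifit2 (-0.21 and -0.13). Of 15 genes of class I antigen presentation none was called in the difference (0 of 15, limma). At an unadjusted p under 0.05 there were 2, against 2184 of all 23120 genes tested. Lower in D and higher in J365 were 8 (53.3%, against 20.6% of all genes). Nlrc5, the activator of class I genes, rose in D by 1.24 ± 0.32 (SE, adjusted p 0.0423). The brain-derived line DB#2 had a mean of 4.19 for Oas1a, DB#1 1.80 and DB#3 1.29.

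**Figure D4:**
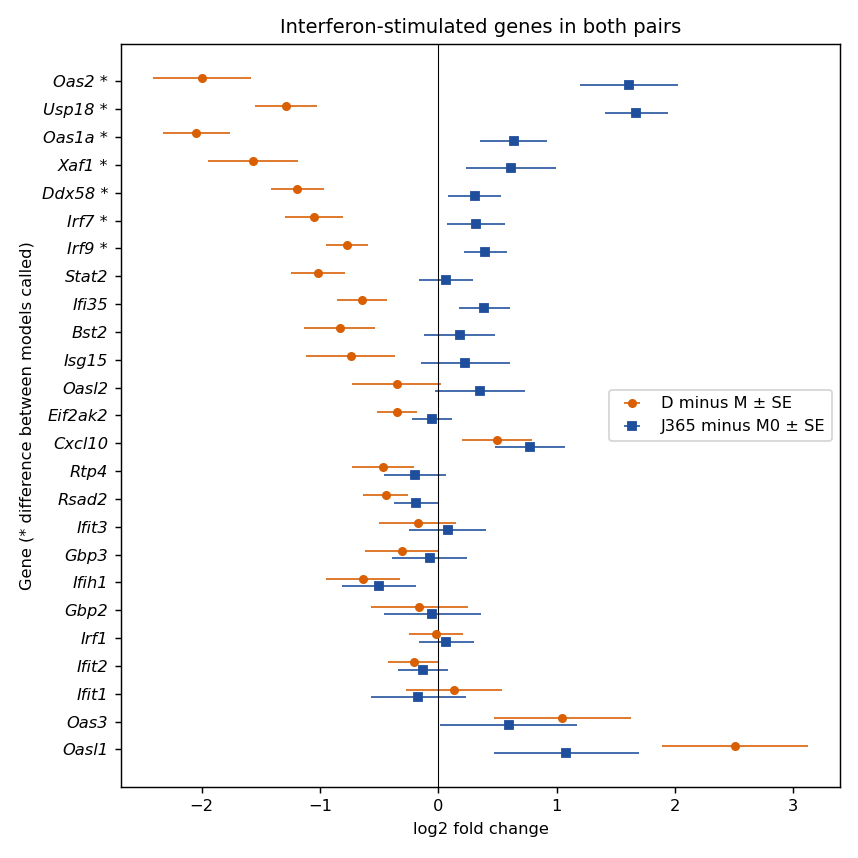
Log2 fold change ± SE (x axis) of 25 of the interferon-stimulated genes tested (y axis, ordered by the difference between models), with circles for D minus M and squares for J365 minus M0. Asterisks mark the 7 genes called in the difference, which lie below 0 in D and above 0 in J365.

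The promoters of interferon-stimulated genes often hold a repeat of GAAA, the core of the element that IRF factors bind. RefSeq promoter windows (assembly GRCm38.p6, 250 bases before to 50 after the start of the gene) were available for 22 of the 26 genes. A motif of GAAA, any 2 bases and GAAA again, on either strand, was in 14 of the 22, and in 3.44% of 32851 windows of the same length. Among the members called in the difference it was in 2 of 5 with a window, Oas1a and Ddx58, and among the other members in 12 of 17. Both windows are shown 5′ to 3′ on the strand of the gene, since these are the members called in the difference whose window holds the motif, with the motif in capitals. That of Oas1a (chr5:120907476-120907775, minus strand) has 2 overlapping matches from base -20 to base -5 before the start, and that of Ddx58 (chr4:40239776-40240075, minus strand) has 1 in the reverse direction from base 3 to base 12 after it.
Oas1a: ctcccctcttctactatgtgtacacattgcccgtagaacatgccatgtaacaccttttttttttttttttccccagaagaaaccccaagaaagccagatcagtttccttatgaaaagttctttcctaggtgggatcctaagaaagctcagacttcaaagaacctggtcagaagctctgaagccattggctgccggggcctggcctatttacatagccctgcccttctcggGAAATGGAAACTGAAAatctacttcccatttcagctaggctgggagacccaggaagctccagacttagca
Ddx58: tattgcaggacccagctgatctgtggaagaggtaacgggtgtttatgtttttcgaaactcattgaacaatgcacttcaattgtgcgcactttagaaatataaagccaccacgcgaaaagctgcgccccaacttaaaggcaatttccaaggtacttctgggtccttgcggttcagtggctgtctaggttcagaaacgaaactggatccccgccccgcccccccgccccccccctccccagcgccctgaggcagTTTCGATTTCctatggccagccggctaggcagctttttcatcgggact

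Among genes read in both pairs, the 4 largest positive differences with a symbol were those of Ddc, Dhdh, Rab38 and Aldh1a3. Rab38, a small GTPase that carries pigment enzymes to melanosomes, was 6.39 to 7.25 on the M and D arrays, 1.74, 1.46, 1.07 and 1.37 on the M0 arrays and -6.37, -6.24 and -6.72 on the J365 arrays, of which none read it. Its change was -0.19 ± 0.20 (SE, adjusted p 0.847) in D and -7.85 ± 0.20 (SE, adjusted p 1.21e-15) in J365, at least 49.8-fold lower. Ddc, which makes dopamine and serotonin by decarboxylation, had the largest positive difference, 8.35 ± 0.54 (SE, adjusted p 3.18e-09). It was 1.57, 1.20, 1.07 and -0.23 in M0 and -6.41, -6.33 and -6.77 in J365, at least 35.1-fold lower, while D minus M was 0.94 ± 0.38 (SE, adjusted p 0.301).

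Among genes with a symbol read in both pairs, the largest negative differences were those of Intu, Cth, Ass1 and Dab2ip, each higher in J365 and not called in D. Intu, a planar polarity effector needed for cilia, was -2.27, -2.35, -3.39 and -2.98 in M0 and 3.61, 3.81 and 3.06 in J365, and its difference was -6.10 ± 0.45 (SE, adjusted p 3.1e-08). Cth, the cystathionine gamma-lyase that makes cysteine from methionine-derived sulfur, was read on no M0 array (-6.15, -6.30, -6.39 and -6.35) and on each J365 array (-0.93, -0.94 and -0.03), at least 11-fold higher. In the melanoma lines it was 1.01, 0.04 and 0.29 in M and 1.57, 0.33, -0.05 and -0.03 in D, which overlapped. Cth was the 1 gene of 27 ATF4 targets and amino acid stress genes called in the difference (3.7%, against 2.08% of all genes), at -5.65 ± 0.48 (SE, adjusted p 1.9e-07). Psph, the last enzyme of serine synthesis, was the only other member called in a pair, at -1.64 ± 0.29 (SE, adjusted p 0.00215) in J365. The median difference of the 27 was -0.33, and 0.40, -0.77 and -0.64 within slides 1, 2 and 3.

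Ass1, argininosuccinate synthase, lets cells make arginine. It rose from -2.18, -1.62, -1.43 and -1.53 in M0 to 3.52, 3.66 and 3.77 in J365. In M it was 4.04, 3.59 and 4.03, and in D 5.29, 3.28, 2.60 and 3.21, with D replicate 1 above and the other D arrays below every M array. The difference was -5.63 ± 0.60 (SE, adjusted p 4.63e-06), and of 9 arginine and urea cycle genes tested it alone was called (11.1%, against 2.08% of all genes). Dab2ip, a GTPase-activating protein for Ras, was 4.52 ± 0.31 higher in J365, at least 12.3-fold, with a second probe at 2.47.

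Genes read in 1 pair only made up 230 of the 480. Of 17685 genes read in both pairs, 250 were called. Of 2460 read in the melanoma pair only, 140 were called. Among these 140, 108 had the larger and 32 the smaller value in that pair, against 283 and 197 over all genes tested. Such genes can still be read on part of the myeloid arrays: Thbs1, Tgfbr3 and Slc2a4 are among them and were each read on 3 of 4 M0 arrays. Myl9, the regulatory light chain of smooth muscle and nonmuscle myosin, was read on no M array and on every D array (0.89, 0.79, 0.28 and 0.70), at least 30.6-fold higher, and on no myeloid array. Olfml1, an olfactomedin-like secreted protein, was at least 7.96-fold higher in D. Lhx5, a LIM homeobox factor of the developing brain, was -1.31, -1.58 and -1.40 in M and not read in D, at least 7.16-fold lower. Nrk, a kinase of the Nik-related family, was -0.97, -0.50 and -0.83 in M and read in D on replicate 3 alone (-4.23, the others -6.04 to -5.75). For genes at background in both myeloid lines the difference between models measures the melanoma change, and an equal change in M0 and J365 could not have been seen.

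Of 2975 genes read in the myeloid pair only, 90 were called. Among these 90, 65 had the larger and 25 the smaller value in the melanoma pair, against 283 and 197 over all genes tested. Il1rl1, the receptor ST2 for interleukin-33, was at background in M0 and -0.78, -0.77 and 1.35 in J365, at least 16.3-fold higher. 2410003L11Rik was at least 31.1-fold higher in J365, and 4930461G14Rik at least 39.3-fold lower. 1700042O10Rik was 2.17, 1.87, 1.74 and 0.16 in M0 and -2.49, -2.47 and -6.76 in J365, where 2 of 3 arrays read it. On D replicate 3 alone these 4 genes were above background among the M and D arrays, at -2.42, -3.44, -2.03 and -2.24 for 2410003L11Rik, Il1rl1, 4930461G14Rik and 1700042O10Rik. Without that array their differences were -6.98, -6.04, 7.17 and 6.71, against -6.00, -5.34, 8.27 and 7.34 with it, all called either way.

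Of 22 glycolysis genes, 15 were higher in D and lower in J365 (68.2%, against 23.5% of all genes tested), with medians of 0.25 in D, -0.17 in J365 and 0.38 in the difference. The median of the difference was 0.84, 0.17 and 0.24 within slides 1, 2 and 3. That of D was 0.45, -0.19 and 0.10 and that of J365 -0.42, -0.34 and -0.14, so on slide 2 both pairs had the same sign. A single member, Slc16a3, was called in the difference (4.55%, against 2.08% of all genes). Slc16a3 is the lactate exporter MCT4, and it was 0.78, 0.32 and 1.04 in M, 2.75, 3.24, 1.67 and 2.04 in D, -0.81, -1.05, -1.21 and -0.58 in M0 and -1.29, -1.03 and -0.94 in J365. D lay above M throughout, by 1.71 ± 0.35 (SE, adjusted p 0.00712), and J365 was at -0.18 ± 0.35 (SE, adjusted p 0.988). Its difference, 1.89 ± 0.49 (SE, adjusted p 0.0491), was just under the threshold and lost its call under 16 of 24 settings. Pdk1, a kinase that inhibits pyruvate dehydrogenase, and hexokinase Hk1 had differences of 1.64 ± 0.60 and 1.17 ± 0.38 that were not called (adjusted p 0.256 and 0.156).

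Collagen processing in the endoplasmic reticulum gave 3 calls of 19 in the difference (15.8%, against 2.08% of all genes), all larger in the melanoma pair. Fkbp10, a collagen chaperone, was -3.15, -3.87 and -3.56 in M and 1.49, 1.37, 0.67 and 1.03 in D, and was read on no myeloid array, with a difference of 4.84 ± 0.47 (SE, adjusted p 1.39e-06). Rcn3, a calcium-binding protein of the endoplasmic reticulum, was -4.02, -3.65 and -3.62 in M and 0.68, 1.05, 0.67 and 0.98 in D but read on every M0 array (5.46, 4.99, 4.71 and 3.42) and J365 array (5.40, 5.34 and 4.41), which overlapped. Its D minus M was 4.61 ± 0.37 (SE, adjusted p 9.13e-08), with 3 probes from 3.58 to 4.61. P4ha2, a subunit of collagen prolyl hydroxylase, had a difference of 1.04 ± 0.25 (SE, adjusted p 0.0281) and lost it under 10 of 23 settings. Like Fkbp10, P4ha2 was read on no myeloid array. Fkbp14, another collagen chaperone of the list, was lower in D, -0.95 ± 0.22 (SE, adjusted p 0.0189). The list's median was 0.14 in D and -0.17 in J365.

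Among 20 regulators of dormancy tested, 2 were called in the difference, Thbs1 and Tgfbr3 (10.0%, against 2.08% of all genes). Thbs1 encodes thrombospondin-1, a matrix protein that blocks angiogenesis, and Tgfbr3 the TGF-beta co-receptor betaglycan. Thbs1 was -2.38, -2.12, -2.25 and -4.46 in M0 and not read in J365, -3.69 ± 0.39 (SE, adjusted p 3.76e-06), with a second probe at -1.28, and D minus M was 0.12 ± 0.39 (SE, adjusted p 0.968). Tgfbr3 had -2.33 ± 0.26 (SE, adjusted p 7.66e-06) in J365 and 0.34 ± 0.26 in D. With normexp correction their differences were 0.96 and 0.60, neither called. Tgfb1 was lower in D, -1.56 ± 0.38 (SE, adjusted p 0.0298), with a difference of -1.94 ± 0.54 that was not called (adjusted p 0.0765). Of 7 cyclin-dependent kinase inhibitors, 1 was called (14.3%, against 2.08% of all genes). It was Cdkn2c, which encodes p18, at -0.90 ± 0.23 (SE, adjusted p 0.0414), and it lost the call under 16 of 24 settings. Of 26 proliferation genes none was called in the difference or in either pair (0 of 26, limma). At an unadjusted p under 0.05 there were 0, 0 and 2 in the difference, D and J365, against 2184, 2642 and 1981 of all 23120 genes tested.

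Of 14 immune checkpoint genes tested, 2 were called in the difference (14.3%, against 2.08% of all genes), Havcr2, described above, and Lgals3, which encodes galectin-3. Lgals3 was 5.67, 4.86 and 5.25 in M, 8.24, 6.63, 6.33 and 6.84 in D, 4.30, 4.33, 3.79 and 2.21 in M0 and 1.46, 1.29 and -0.10 in J365. It stood apart in both pairs, higher in D and lower in J365, but the D value of 1.75 ± 0.51 (SE, adjusted p 0.0864) missed the threshold, while that in J365 was -2.78 ± 0.51 (SE, adjusted p 0.00362) and the difference 4.53 ± 0.72 (SE, adjusted p 0.000739). Cd274, which encodes PD-L1, was at -0.62 ± 0.21 in D and -0.04 ± 0.21 in J365. In the glutathione and antioxidant list 2 of 28 were called (7.14%, against 2.08% of all genes). Gsta4, a glutathione transferase for lipid peroxidation products, had a difference of 4.71 ± 0.44 (SE, adjusted p 8.76e-07) from D, and Gstt3 one of -1.18 ± 0.24 (SE, adjusted p 0.00691). Of 25 septins and actin capping and severing proteins 2 were called (8%, against 2.08% of all genes). Avil (advillin) was 5.28 ± 0.61 (SE, adjusted p 1.02e-05) in J365 with a difference of -4.05 ± 0.86, and Scin (adseverin) had a difference of 1.48 ± 0.38, lost under 17 of 23 settings. No M or D array read Scin, and Avil was read on no M array and 2 of 4 D arrays.

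The study's own protein lists were also placed in both pairs. They were picked from protein measurements on the melanoma and leukemia models of the study. The melanoma lists come from lines of the same names as M and D, so their direction in that pair is not independent evidence. Whether M0 and J365 are the lines behind the leukemia lists is not given, so the same may hold there. Of 72 genes whose protein was lower in dormant melanoma cells, 35 had RNA lower in D and higher in J365 (48.6%, against 20.6% of all genes), and 57 had a difference below 0 (79.2%, against 50.4%). In the difference, 4 of the 72 were called (5.56%, against 2.08% of all genes): Ass1, Arfgef3, Gstt3 and Lta4h, the last making leukotriene B4. The difference of Ass1 came from J365, 5.34 ± 0.42, with D at -0.29 ± 0.42. Arfgef3, related to exchange factors of ARF GTPases, had -1.79 ± 0.22 (SE, adjusted p 3.3e-05), and Lta4h -0.69 ± 0.17 (SE, adjusted p 0.0394). No myeloid array read Arfgef3. The list's median difference of -0.24 was 0.16 within slide 1, and -0.73 and -0.33 within slides 2 and 3.

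Of 59 genes whose protein was raised in dormant leukemia cells, 46 had a difference below 0 (78.0%, against 50.4% of all genes), with a median of 0.33 in J365 and 0.04 in D. None was called in the difference (0 of 59, limma). At an unadjusted p under 0.05 there were 10, against 2184 of all 23120 genes tested. Within slide 1 the median of the difference was 0.20, within slides 2 and 3 it was -0.65 and -0.31. Of 95 genes whose protein was raised in dormant melanoma cells, 2 were called each way (4.21% both ways together, against 2.08% of all genes). They were Tubb2b, a beta-tubulin of neurons, at 2.34 ± 0.28 (SE, adjusted p 2.36e-05), Ppic, cyclophilin C, at 1.63 ± 0.34 (SE, adjusted p 0.0107), Fem1b, a substrate receptor of a ubiquitin ligase, at -1.25 ± 0.20 (SE, adjusted p 0.000771), and Celf2, an RNA-binding splicing factor, at -0.90 ± 0.19 (SE, adjusted p 0.0122). The difference of Fem1b came from J365, 1.26 ± 0.14, with D at 0.01 ± 0.14. That of Celf2 came mostly from J365, 0.74 ± 0.14, with D at -0.16 ± 0.14 and not called. Tubb2b and Ppic were read on no myeloid array. Ppic was called in neither pair (limma), at 0.91 ± 0.24 (SE, adjusted p 0.055) in D and -0.72 ± 0.24 (SE, adjusted p 0.232) in J365. Of 67 genes whose protein was lowered in dormant leukemia cells, 3 were called (4.48%, against 2.08% of all genes), all larger in the melanoma pair. They were Adssl1, the muscle adenylosuccinate synthetase, at 3.62 ± 0.59 (SE, adjusted p 0.000882), from a rise in D of 3.13 ± 0.42, Acss1, a mitochondrial acetyl-CoA synthetase, at 1.18 ± 0.25 (SE, adjusted p 0.0122), and Kyat3, a kynurenine aminotransferase, at 1.15 ± 0.24 (SE, adjusted p 0.0088).

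None of the 11 genes whose protein changed in both models was called in the difference or in either pair (0 of 11, limma). At an unadjusted p under 0.05 there were 1, 3 and 0 in the difference, D and J365, against 2184, 2642 and 1981 of all 23120 genes tested. Their RNA had the same sign in both pairs for 4 of 11, against 56.0% of all genes tested. The study names only SEPTIN-9 and CAPG as raised in both models, so the proteins themselves mostly differed in direction. Capg, which caps actin filaments, was higher in both, 0.64 ± 0.28 and 0.50 ± 0.28, neither called. The enolase Eno1 was at 0.24 ± 0.22 and -0.12 ± 0.22, and Tpi1 and Aldoa also differed in sign between the pairs. The median difference over the 11 was 0.10, and within slides 1, 2 and 3 it was 0.31, -0.58 and 0.13.

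**Figure D5:**
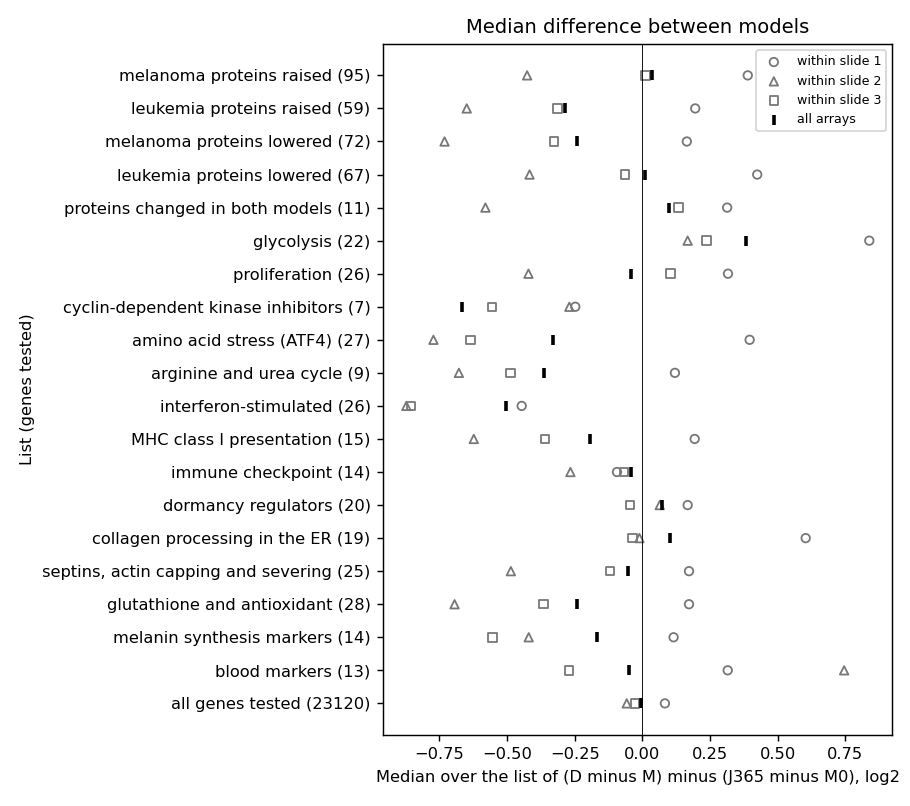
Median of (D minus M) minus (J365 minus M0), in log2 (x axis), over the tested genes of each list (y axis, number of genes in brackets). Black ticks use all arrays and open symbols the arrays of 1 slide. On all 3 slides the interferon-stimulated, cyclin-dependent kinase inhibitor and immune checkpoint lists are below 0 and the glycolysis list above 0, and the other 15 of the 19 lists change sign between slides.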

How the data were processed

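RNA of 24 samples was hybridised with Cy3 label, 1 sample an array, to Agilent whole mouse arrays and read with Agilent Feature Extraction 10.7.3.1, according to the submitters' processing notes. The deposited values were the processed signal intensity of each spot, after background subtraction, on a linear scale. Control spots were left out, spots of a probe averaged, log2 taken and the 75th percentile of each array subtracted. Of 56488 probes, 32917 got a gene symbol by matching their accession to RefSeq (GRCm38.p6), and the brightest probe stood for a gene. Limma 3.58.1 in R 4.3.3 fitted a term per line over all 24 arrays (17 residual degrees of freedom), with Benjamini-Hochberg adjustment over the 23120 genes of each contrast. The fit was tested on simulated data. A bound ("at least") sets the brighter line's mean against the dimmest signals well above background in the other. Alternatives covered slide and replicate block, normalization, background correction, filters, probes and leaving out each array. Normexp used the median signal, since the files used here hold no mean signal column. Named genes were those called in both pairs, the largest differences by read status, and up to 3 called genes a list. Other list members were picked for mention after their values were seen. Members and lists were chosen with earlier results of these data known. The number of arrays limits the precision. 1 list member is counted but not reported here.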

Additional observations from a re-analysis of the deposited data

Results flagged for a closer look

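The changes of the melanoma and myeloid pairs differed by the interaction contrast itself (limma, adjusted p under 0.05) for 283 genes with the larger and 197 with the smaller value in the melanoma pair. Among genes called in both pairs the difference was -1.15 for Ccdc74a, -2.64 for Dhrs2, 6.07 for Aldh1a3, 7.81 for Dhdh, 4.49 for Dlg3, -2.53 for Havcr2, -1.56 for Padi2, 5.82 for Sh2b2, 5.24 for Slc2a4, 4.50 for Slc44a3, -2.62 for Tmcc3, 4.40 for Tnnt1 and -2.96 for Usp18, in log2 units. Among the largest differences it was -6.10 for Intu, -5.65 for Cth, -5.63 for Ass1, -4.40 for Dab2ip, 7.67 for Rab38 and 8.35 for Ddc.

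Among genes read in 1 pair it was -4.63 for Lhx5, -4.08 for Nrk, 5.22 for Olfml1, 5.48 for Myl9, -6.00 for 2410003L11Rik, -5.34 for Il1rl1, 7.34 for 1700042O10Rik and 8.27 for 4930461G14Rik. Among list members it was 2.34 for Tubb2b, 1.63 for Ppic, -1.25 for Fem1b, -1.79 for Arfgef3, -1.18 for Gstt3, 3.62 for Adssl1, 1.18 for Acss1, 1.15 for Kyat3, 1.89 for Slc16a3, -0.90 for Cdkn2c, -3.61 for Oas2, -2.68 for Oas1a, 4.53 for Lgals3, 3.81 for Thbs1, 2.67 for Tgfbr3, 4.84 for Fkbp10, 4.21 for Rcn3, 1.04 for P4ha2, -4.05 for Avil, 1.48 for Scin and 4.71 for Gsta4.

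Single arrays stood far from the other 3 of their line by Dixon's test for some named genes, which chance alone brings about in a small share of such groups (about 5%). On M0 replicate 4 these were Ccdc74a at -4.36, Gm8032 at 3.44 and Thbs1 at -4.46. Cd248 was at -3.38 on M0 replicate 1. In D, Aldh1a3 stood at -0.10 on replicate 1, and Nrk at -4.23 and P4ha2 at 1.76 on replicate 3.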

How the results depend on the processing

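Over up to 24 alternatives each, none of the 88 named values changed direction and 53 kept their call throughout; the list medians moved by more than their spread in 18 of 456 cases. With slide as a block, 356 genes had a called smaller difference, 27 moved the same way, 29 opposite ways, 1018 were called in D and 527 in J365. Quantile normalization gave 245 larger and 297 smaller differences and 546 genes in J365. A 75th percentile over detected probes gave 22 same-direction genes. With the 14 arrays alone the counts were 176 larger, 99 smaller, 4 same, 6 opposite, 281 in D and 180 in J365. Genes read in both pairs alone gave 99 larger, 129 smaller, 5 same, 288 in D and 178 in J365, from fewer genes tested. Without a filter 123 were smaller and 8 opposite. Apart from these constructions the cause of the shifts was not tested. Leaving out 1 array gave 232 to 377 larger, 122 to 388 smaller, 7 to 24 same and 9 to 23 opposite, 323 to 895 in D (895 without D replicate 1, 337 without M replicate 2, 323 without M replicate 3) and 254 to 558 in J365 (558 without D replicate 3). Signal near background limits the genes at background in a line, for which normexp correction gave smaller changes.

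Replicate numbers did not pair the samples: over 15 pairs of arrays with 1 number, deviations from the line means correlated at -0.594 to 0.803, and 5 were over 0.1. Arrays of 1 slide deviated together (median 0.54, other arrays -0.171). With a replicate block the difference was called for 330 larger and 185 smaller values, and 16 genes moved the same way and 20 opposite ways.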
